A study of Mus musculus with 4 samples.

Results

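The nucleosome remodelling and deacetylase (NuRD) complex was examined through the transcripts of 10 of its subunits, taken by gene symbol from a table of 22138 genes. The 10 genes were Chd4, Hdac1, Hdac2, Mta1, Mta2, Mta3, Mbd2, Mbd3, Gatad2a and Gatad2b. All 10 were found, each in 1 row, and all 10 had a mean of at least 0.5 RPKM (a read density scaled to transcript length and library size) over the 4 libraries, the minimum for testing. The cells were TT2, a mouse embryonic stem (ES) cell line of C57BL/6xCBA background given as female and kept without feeders on serum and LIF, the cytokine that sustains ES cell self-renewal. They received either Control siRNA or Hnrnpk siRNA (2 libraries each, described as biological replicates), at 100 nM and again at 50 nM 24 hours later, and RNA was taken about 72 hours after the second dose. The target of the Hnrnpk siRNA codes for hnRNP K, a protein that binds RNA and DNA and that the title of the series places in gene silencing by SETDB1. Both groups share the line and the transfection, and no source used here says whether the replicates were separate cultures. The spread between them may therefore be technical. Below, control cells received Control siRNA and knockdown cells received Hnrnpk siRNA.

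NuRD joins 2 enzymatic activities on chromatin, the ATP-driven sliding of nucleosomes and the removal of acetyl groups from histones. The MTA proteins are the scaffold that holds the histone deacetylases HDAC1 and HDAC2 and the histone-binding proteins RBBP4 and RBBP7. MBD2 or MBD3, which exclude each other from a complex, and the GATAD2 proteins join this module to the remodeller, chiefly CHD4. In ES cells NuRD containing MBD3 is known for its part in the exit from self-renewal and in lineage commitment.

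Hnrnpk itself stood at 236 and 226 RPKM in control replicates 1 and 2 and at 68.0 and 70.5 RPKM in Hnrnpk siRNA replicates 1 and 2, so the targeted gene was lower where the labels say. The values summed to 359659 and 362836 RPKM in the control libraries and to 377825 and 390467 RPKM in the knockdown libraries. Sums of RPKM given below were not adjusted for this difference unless a scaling is named. Steps between low values gave relative depths of 0.982, 0.891 and 0.882 in control replicate 2 and Hnrnpk siRNA replicates 1 and 2 when control replicate 1 was set to 1. With exonic lengths from GENCODE M21, the same steps put Mbd2, the lowest member, at about 1697 to 2060 reads or read pairs per library and every other member at 11518 or more, so counting error was at most about 2.43% of a value. ES cell markers summed to 3502 and 3395 RPKM over 8 genes in control cells and to 4173 and 4474 RPKM in knockdown cells. Dppa5a, at 1320.3 and 1276 RPKM and then 2164 and 2451 RPKM, weighed most in that sum. The rise of the sum therefore does not describe the 8 genes as a set. By the calls defined below, 3 of the 8 rose, Dppa5a (log2 change 0.83), Nanog (0.82) and Dppa4 (0.21). Another 3 fell, Sox2 (-0.53), Utf1 (-0.29) and Tdgf1 (-0.24). Pou5f1 (-0.15) and Esrrb (0.15) were not called. Of all genes tested, 32.2% were called higher and 35% lower. Markers of primitive endoderm summed to 21.8 and 21.0 RPKM over 9 genes in control cells and to 63.1 and 65.005 RPKM in knockdown cells, with Sox17 and Foxa2 at means under 0.5 RPKM. Of the 7 tested, 6 were called higher and 0 lower, and Lama1 (log2 change 0.069) was not called. Col4a1, with means of 6.69 RPKM in control and 23.1 RPKM in knockdown cells, and Gata6, with 0.643 and 13.9 RPKM, weighed most in the rise. Markers of trophectoderm summed to 71.3 and 68.3 RPKM over 7 genes and then to 91.7 and 96.5 RPKM, with Cdx2 and Elf5 at means under 0.5 RPKM. Gata3 (log2 change 2.43), Eomes (1.65), Krt18 (0.87) and Krt8 (0.85) rose, while Tfap2c (-0.40), the most abundant of the 7 in control cells, fell. Fibroblast markers, as feeder cells would carry, summed to 9.46 and 8.02 RPKM over 7 genes in control cells and to 4.08 and 4.32 RPKM in knockdown cells. Thy1 (log2 change -1.24) and Col1a1 (-0.42) made up nearly all of that sum and fell, and the other 5 had a mean under 0.5 RPKM. In control cells those 5 averaged 0.078 (Col1a2), 0.024 (Dcn), 0.012 (Lum), 0.0075 (Col3a1) and 0.0047 (Postn) RPKM. No marker of these lists was at 0 in all libraries. The part of these other cell types in the changes below was not tested, and in bulk RNA fewer cells of a type and less RNA per cell cannot be told apart.

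In knockdown cells the NuRD transcripts moved in both directions and by less than 2-fold. Mta1, Chd4, Mbd3 and Hdac1 fell, Mta2, Hdac2 and Mta3 rose, and Mbd2, Gatad2a and Gatad2b were not called. Calls are at a Benjamini-Hochberg adjusted p under 0.05 from limma, a linear model of log2(RPKM + 0.5) fitted over the 12486 genes tested. The 7 of 10 members called compare with 67.2% of all genes tested, the 3 higher with 32.2% and the 4 lower with 35%, so the shares called were near the background. The median log2 change was -0.043 over the 10 members and -0.015 over all genes tested, and the median size of the change, without its sign, was 0.23 and 0.32. The groups did not overlap for 8 of the 10 members, against 84.7% of genes tested, with 3 higher (41.2% of genes tested) and 5 lower (43.5%). No member was called with a change of at least 2-fold, which 8.51% of genes tested were. Mta1 and Chd4 were lower and Mta2 was higher, each past the threshold, in all 15 alternative analyses. The calls on Mbd3 and Hdac1 were lost when the trend of the changes with GC content was removed, with log2 changes of -0.13 (limma adjusted p = 0.162) and -0.15 (limma adjusted p = 0.0550). The lower calls then numbered 2. Without Hnrnpk siRNA replicate 1, 1 member was called higher and 3 were called lower.

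**Figure D1:**
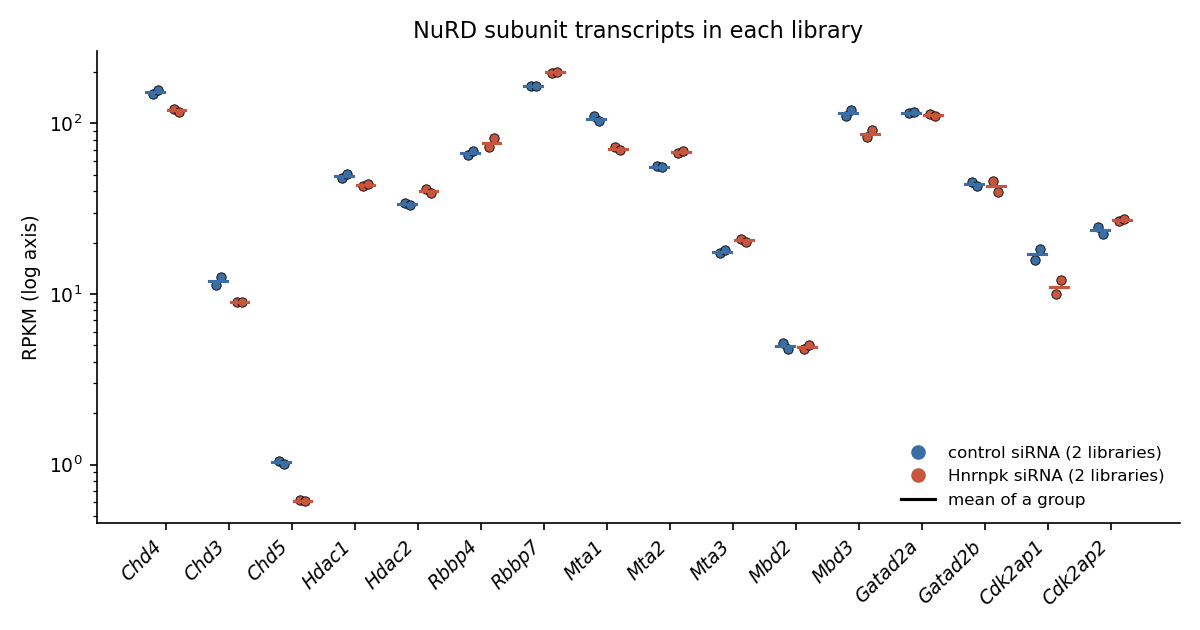
RPKM (log axis) of the 10 NuRD members and 6 further subunits in each library. Points are libraries, blue for control siRNA and red for Hnrnpk siRNA, and bars are the means of 2. Mta1, Chd4 and Mbd3 sit lower in knockdown cells, Mta2, Mta3, Hdac2 and Rbbp7 sit higher, and the Mbd2 and Gatad2b points of the groups overlap.

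Chd4 (ENSMUSG00000063870, chromosome 6, 125095981 to 125130591; GENCODE M21 positions on GRCm38 here and below), the main remodelling ATPase of the complex, was listed at 149.6 and 156 RPKM in control cells and at 122 and 116 RPKM in knockdown cells. Both knockdown libraries lay below both control libraries. The group means were 153 ± 4.69 and 119 ± 4.11 RPKM (SD, n = 2 each), for a log2 change of -0.36 with SE 0.0641 (limma adjusted p = 0.000810). Chd4 was the most abundant of the 10 members per length in every library, and 98.3% of all genes in the table were below it in control cells.

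Chd3, a paralog that takes the place of CHD4 in some complexes, went from 11.2 and 12.6 RPKM to 8.98 and 9.03 RPKM, for a log2 change of -0.38 with SE 0.0775 (limma adjusted p = 0.00177). Chd5, the third paralog, known chiefly from the nervous system and testis, was near the minimum level at 1.05 and 1.004 RPKM and fell to 0.620 and 0.610 RPKM (log2 change -0.46, limma adjusted p = 0.00184). All 3 remodellers were lower. The share of Chd4 overlapped between the groups. Chd4 made up 92.2% ± 0.292 of the summed RPKM of the 3 genes in control cells and 92.5% ± 0.257 in knockdown cells (SD, n = 2 each; exact two-sided permutation p = 0.667). With 2 libraries a group, such a test of a single value cannot give less than 0.33.

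The 2 deacetylases moved apart. Hdac1 (ENSMUSG00000028800, chromosome 4, 129516104 to 129542713) went from 47.6 and 50.5 RPKM to 43.0 and 44.0 RPKM, and Hdac2 (ENSMUSG00000019777, chromosome 10, 36974544 to 37001889) from 34.3 and 33.4 RPKM to 41.1 and 39.1 RPKM. Neither pair of groups overlapped. The log2 change was -0.17 with SE 0.0629 (limma adjusted p = 0.0340) for Hdac1 and 0.24 (SE 0.0628, limma adjusted p = 0.00727) for Hdac2. Hdac1 made up 58.1% and 60.2% of the summed RPKM of the 2 genes in the control libraries, then 51.1% and 53.0% in the knockdown libraries, a fall that separated the groups (exact two-sided permutation p = 0.33, the smallest possible). Their sum was 82.9 ± 1.37 RPKM in control cells and 83.6 ± 0.724 RPKM in knockdown cells (SD, n = 2 each), closer than the spread within the control pair.

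Hdac1 was the only 1 of the 10 members whose longest coding transcript matched another gene with at least 95% identity along 100 bases or more. The processed pseudogene Gm10093 shared 1444 of its 2038 bases at 99.4% identity. Gm10093 was listed at 16.6 and 14.7 RPKM in control cells and at 19.1 and 18.1 RPKM in knockdown cells, for a log2 change of 0.24 with SE 0.0771 (limma adjusted p = 0.0179), opposite in sign to Hdac1. A second pseudogene, AC125456.1, matched 1450 bases at 96.3% identity. No source used here says how reads fitting several places were treated, and the level of Hdac1 is uncertain for that reason. Its call was lost in 6 of 15 alternatives, among them the analyses without control replicate 2 (log2 change -0.13, limma adjusted p = 0.153), Hnrnpk siRNA replicate 1 (-0.16, 0.136) and Hnrnpk siRNA replicate 2 (-0.19, 0.0767). The call on Hdac2 was lost without Hnrnpk siRNA replicate 1 (log2 change 0.20, limma adjusted p = 0.0595).

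The histone-binding subunits, which NuRD shares with other chromatin complexes, both rose. Rbbp7 went from 165 and 165 RPKM to 198 and 199.5 RPKM, for a log2 change of 0.27 with SE 0.0616 (limma adjusted p = 0.00355), and was not called under quantile normalization (0.14, 0.0527). Rbbp4 went from 65.1 and 69.1 RPKM to 72.4 and 81.6 RPKM, for a log2 change of 0.20 with SE 0.0737 (limma adjusted p = 0.0385). The rise of Rbbp4 was not called without control replicate 1 (log2 change 0.15, limma adjusted p = 0.148) or without Hnrnpk siRNA replicate 2 (0.11, 0.273), nor with the GC trend removed (0.14, 0.113). Rbbp7 also shares 942 bases at 97.1% identity with the processed pseudogene Gm6382.

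**Figure D2:**
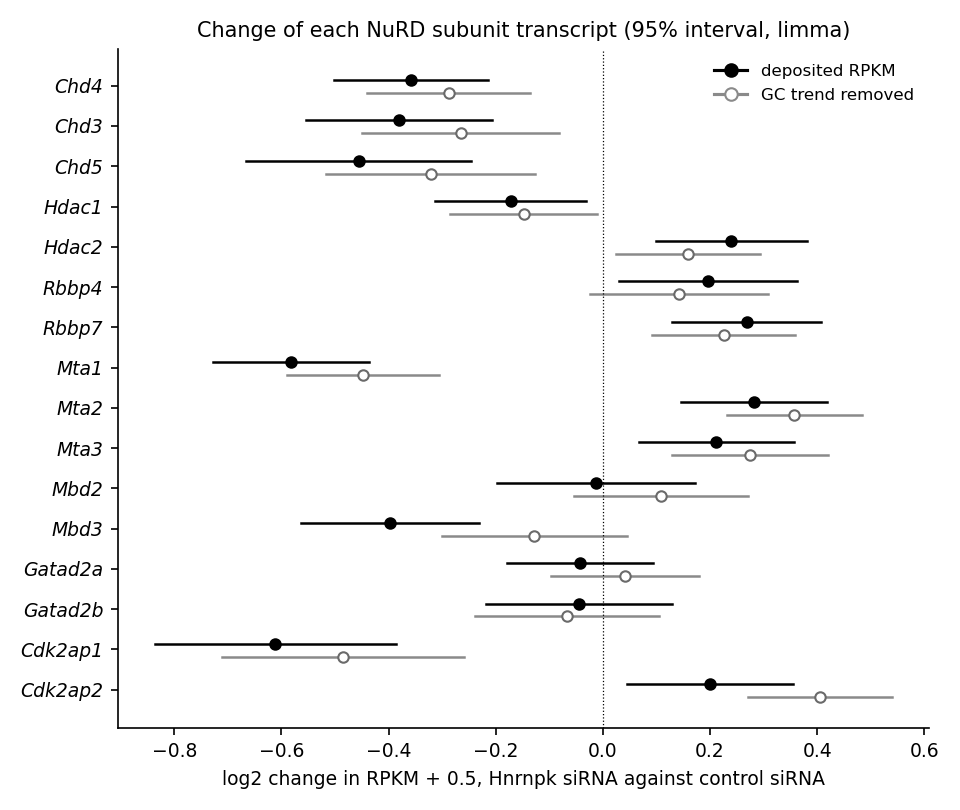
Log2 change of each NuRD subunit transcript in knockdown cells, with limma's 95% interval. Filled points are from the deposited RPKM and open points are after removal of the trend with GC content. Mta1 has the lowest value among the 10 members at -0.58, and Mbd3 moves from -0.40 to -0.13 when the trend is removed.

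The scaffold genes moved in opposite directions. Mta1 (ENSMUSG00000021144, chromosome 12, 113098278 to 113137206) fell from 110.2 and 103 RPKM to 72.2 and 69.7 RPKM, while Mta2 (ENSMUSG00000071646, chromosome 19, 8941875 to 8952303) rose from 56.5 and 55.1 RPKM to 66.8 and 69.2 RPKM. Mta3 (ENSMUSG00000055817, chromosome 17, 83706163 to 83821516) rose from 17.4 and 18.01 RPKM to 20.9 and 20.3 RPKM. No pair of groups overlapped for any of the 3 genes. The log2 change was -0.58 for Mta1 (SE 0.0647, limma adjusted p = 3.81e-05), 0.28 for Mta2 (SE 0.0609, limma adjusted p = 0.00245) and 0.21 for Mta3 (SE 0.0648, limma adjusted p = 0.0156). Mta1 was lower in relation to all genes as well, with 14.6% of genes tested having a lower log2 change. The rise of Mta3 was not called without Hnrnpk siRNA replicate 1 (log2 change 0.19, limma adjusted p = 0.104) or without Hnrnpk siRNA replicate 2 (0.23, 0.0529).

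These changes brought Mta1 and Mta2 to nearly equal levels per length. The ratio of Mta1 to Mta2 RPKM was 1.95 and 1.86 in the control libraries, then 1.08 and 1.01 in the knockdown libraries. As a share of the summed RPKM of the 3 genes, Mta1 went from 59.1% ± 1.003 to 44.5% ± 0.9745, Mta2 from 31.0% ± 0.458 to 42.6% ± 1.21 and Mta3 from 9.85% ± 0.544 to 12.9% ± 0.234 (SD, n = 2 each; exact two-sided permutation p = 0.33 for each share, the smallest possible). The difference in the Mta1 share was -14.7 percentage points and ran from -15.4 to -14.0 when single libraries were left out. The sum of the 3 genes was 180.0 ± 5.77 RPKM in control cells and 159.6 ± 0.517 RPKM in knockdown cells (SD, n = 2 each), or 88.6% of the control level. Unequal change within a library does not depend on how libraries are scaled by a constant.

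**Figure D3:**
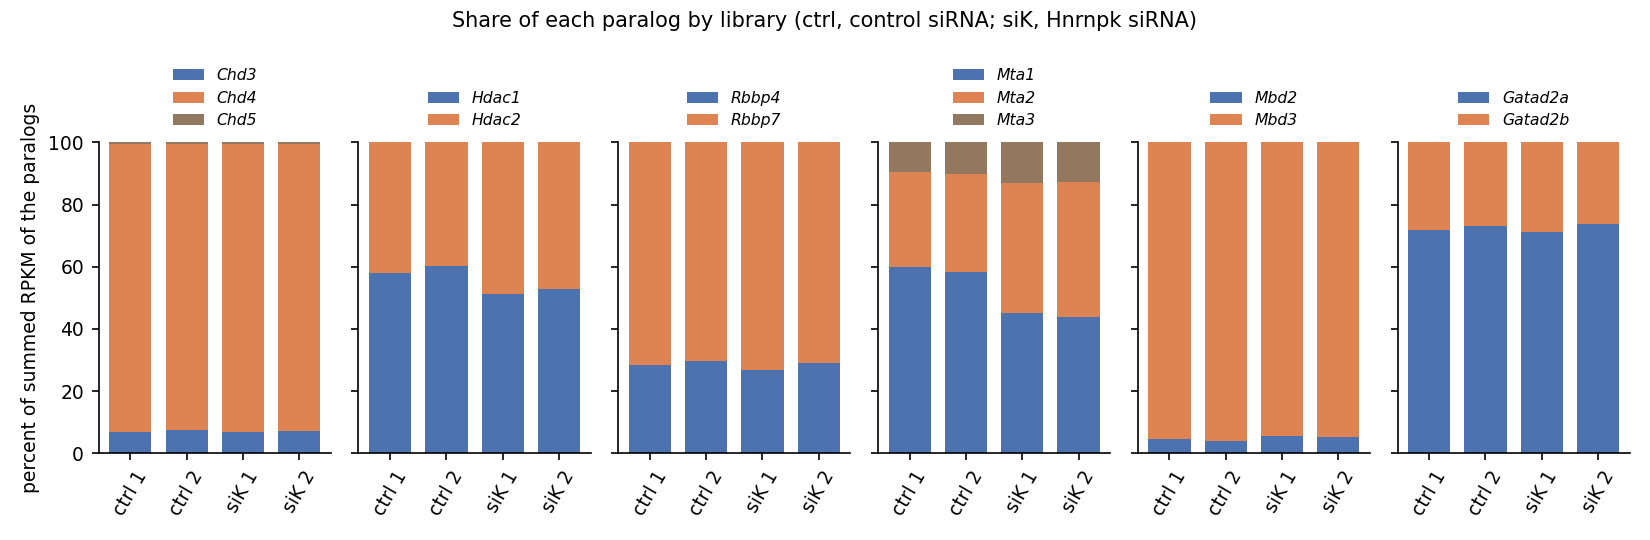
Share of each paralog in the summed RPKM of its paralog group, in percent, for each of the 4 libraries (ctrl, control siRNA; siK, Hnrnpk siRNA). The Mta1 share is 59.8% and 58.4% in the control libraries, then 45.2% and 43.8% in the knockdown libraries, and the GATAD2, CHD and RBBP panels show overlapping shares of their main paralogs.

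Promoter sequence is shown for Mta1 and Mta2, the scaffold genes that moved in opposite directions, and for Mbd3, which fell. The sequence before their starts can thus be compared. Each line gives the 200 bases from 250 to 51 bases before a RefSeq transcription start on GRCm38.p6, read 5′ to 3′ on the gene's strand, with CpG dinucleotides in capitals. They lie at chr12:113098028-113098227 (plus strand) for Mta1, chr10:80399582-80399781 (minus strand) for Mbd3 and chr19:8941670-8941869 (plus strand) for Mta2.
Mta1: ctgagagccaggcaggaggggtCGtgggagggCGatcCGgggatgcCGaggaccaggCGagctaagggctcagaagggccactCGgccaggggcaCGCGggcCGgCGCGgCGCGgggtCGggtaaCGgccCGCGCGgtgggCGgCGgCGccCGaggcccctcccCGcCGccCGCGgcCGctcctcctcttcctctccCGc
Mbd3: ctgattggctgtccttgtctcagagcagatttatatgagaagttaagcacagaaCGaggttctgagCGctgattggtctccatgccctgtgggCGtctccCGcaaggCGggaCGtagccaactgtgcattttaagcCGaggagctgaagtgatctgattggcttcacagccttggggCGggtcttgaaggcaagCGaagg
Mta2: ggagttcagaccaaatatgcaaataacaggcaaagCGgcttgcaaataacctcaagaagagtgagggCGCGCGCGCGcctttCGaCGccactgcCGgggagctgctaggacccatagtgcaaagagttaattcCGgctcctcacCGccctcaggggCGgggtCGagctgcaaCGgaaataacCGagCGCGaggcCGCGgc
The Mta1 window held 28 CpG dinucleotides, more than 97.0% of the 32851 RefSeq promoter windows of the same length, the Mta2 window held 19 and the Mbd3 window held 9. The median window held 4. The letters CCCTCCCC, a C-rich sequence of the kind hnRNP K is known to bind, were searched on both strands (GGGGAGGG on the other). They were present in 6.96% of all windows, in the Mta1 window and in neither of the other 2 shown. That share was not taken over windows of like GC content, which was 79% for Mta1, 60% for Mta2 and 54% for Mbd3. RefSeq promoters were matched for 7 of the 10 members, with 10 starts in all. The window of 1 start of Gatad2a, which was not called, also held the letters. A match of letters is not a binding site, and no binding was measured here.

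Mbd3 (ENSMUSG00000035478, chromosome 10, 80392539 to 80399550), whose protein links the deacetylase module to the remodeller, fell from 109.8 and 120.0 RPKM to 82.9 and 91.4 RPKM. The groups did not overlap, and their means were 115 ± 7.24 and 87.1 ± 6.00 RPKM (SD, n = 2 each). The log2 change was -0.40 with SE 0.0738 (limma adjusted p = 0.00102), and it was not called when genes of low level were kept in the fit (limma adjusted p = 0.0564). Mbd2 (ENSMUSG00000024513, chromosome 18, 70568189 to 70626131), the paralog that binds methylated DNA, was listed at 5.16 and 4.75 RPKM and then at 4.77 and 5.03 RPKM, with overlapping groups. Its log2 change was -0.013, with a 95% interval of -0.20 to 0.17 (limma adjusted p = 0.900). Mbd3 made up 95.9% ± 0.483 of the summed RPKM of the pair in control cells and 94.7% ± 0.160 in knockdown cells (SD, n = 2 each; exact two-sided permutation p = 0.33). Nearly all of the transcript of the pair was from Mbd3 in both groups, and the sum of the pair was 76.8% of its control level.

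Changes over the tested genes followed a trend with GC content, and Mbd3 lay toward its GC-rich end. The longest coding transcript of Mbd3 had 62.9% GC, the highest of the 10 members, and that of Hdac2 had 41.9%, the lowest. Over the 12269 tested genes with a GC value, the median log2 change went from 0.091 among the 2454 with the least GC to -0.17 among the 2454 with the most. At the GC content of Mbd3 the trend amounted to -0.27 on the log2 scale, and at that of Mta1 to -0.13. After its removal Mta1 had a log2 change of -0.45 (limma adjusted p = 0.000224), Chd4 -0.29 (0.00426), Mta2 0.36 (0.000438), Mta3 0.27 (0.00439) and Hdac2 0.16 (0.0377). The origin of the trend was not tested.

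**Figure D4:**
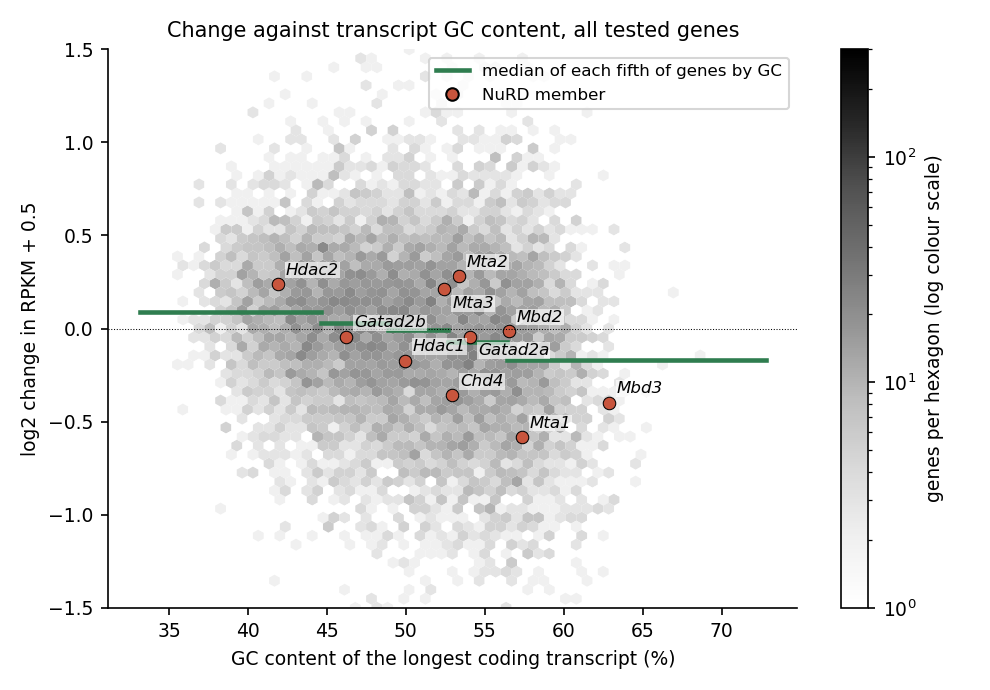
Log2 change in knockdown cells (vertical axis, genes beyond 1.5 in size not drawn) against GC content of the longest coding transcript in percent, for all tested genes with a GC value (grey hexagons, darker where more genes fall). Green bars are the median change in 5 equal bins of genes by GC, from 0.091 to -0.17, and red points are the 10 NuRD members, with Mbd3 farthest to the right at 62.9% GC.

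The GATAD2 genes, whose proteins bridge MBD2 or MBD3 to CHD4, were not called. Gatad2a (ENSMUSG00000036180, chromosome 8, 69907076 to 69996384) was listed at 115 and 116 RPKM in control cells and at 113 and 111 RPKM in knockdown cells, slightly lower in both. Its log2 change was -0.043, with a 95% interval of -0.18 to 0.09 (limma adjusted p = 0.549), and it was called lower under quantile normalization (-0.15, 0.0455). Gatad2b (ENSMUSG00000042390, chromosome 3, 90293178 to 90363407) was listed at 45.4 and 42.9 RPKM and then at 45.9 and 39.9 RPKM, so that the knockdown libraries lay on either side of the control libraries. Its log2 change was -0.044, with a 95% interval of -0.22 to 0.13 (limma adjusted p = 0.631). Gatad2a was 72.4% of the summed RPKM of the pair in both groups.

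Summed over the 10 members, transcript levels were 691 and 700.1 RPKM in the control libraries and 613 and 606 RPKM in the knockdown libraries. The mean in knockdown cells was 87.6% of that in control cells (exact two-sided permutation p = 0.33, the smallest possible). Chd4, Mta1 and Mbd3, which fell, were 3 of the 4 most abundant members in the control libraries, and Gatad2a was the other. Per length, the order of the control means was Chd4, Gatad2a, Mbd3, Mta1, Mta2, Hdac1, Gatad2b, Hdac2, Mta3 and Mbd2. Gatad2a (116 ± 0.982 RPKM), Mbd3 (115 ± 7.24 RPKM) and Mta1 (106 ± 5.22 RPKM; SD, n = 2 each) followed each other there with overlapping libraries of Mbd3 and each neighbour. In knockdown cells the order was Chd4, Gatad2a, Mbd3, Mta1, Mta2, Hdac1, Gatad2b, Hdac2, Mta3 and Mbd2 again. Mta1 and Mta2 then stood at 71.0 ± 1.79 and 68.0 ± 1.71 RPKM, and Gatad2b at 42.9 ± 4.24 RPKM (SD, n = 2 each) had a library on either side of both those of Hdac1 and a range overlapping that of Hdac2.

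The remaining subunits tested were the small proteins CDK2AP1 and CDK2AP2. Cdk2ap1, which encodes an accessory NuRD subunit, fell from 15.8 and 18.2 RPKM to 9.96 and 12.0 RPKM, for a log2 change of -0.61 with SE 0.1001 (limma adjusted p = 0.000460). Gm12184 matched 98.3% of the Cdk2ap1 transcript, with 99.4% identity over 1299 bases, and was itself listed at 3.50 and 3.07 RPKM and then at 2.33 and 2.43 RPKM, so reads could be split between the 2 loci and the level of Cdk2ap1 is uncertain. Cdk2ap2, a paralog of Cdk2ap1, rose from 24.7 and 22.5 RPKM to 26.7 and 27.6 RPKM, for a log2 change of 0.20 with SE 0.0693 (limma adjusted p = 0.0274). That call was lost without control replicate 2 (log2 change 0.13, limma adjusted p = 0.141), Hnrnpk siRNA replicate 1 (0.22, 0.0640) or Hnrnpk siRNA replicate 2 (0.18, 0.135). In all, 3 of the 6 further subunits were called higher and 3 lower, beside 32.2% and 35% of all genes tested. Under quantile normalization 1 was called higher and 3 lower.

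HDAC1 and HDAC2 also serve other complexes, whose genes were counted in the same way. The counts of these and the further lists stand against 35% of all genes tested called lower, 32.2% called higher and 67.2% called in either direction. In the CoREST complex, which pairs the deacetylases with the histone demethylase KDM1A, 7 of 10 genes fell and 1 rose, with a median log2 change of -0.35. Phf21a, a reader of unmethylated histone H3 in that complex, fell from 5.35 and 4.84 RPKM to 2.205 and 2.08 RPKM (log2 change -1.08, SE 0.0880, limma adjusted p = 5.69e-06). Zmym2 fell with a log2 change of -0.52. With the GC trend removed, 5 CoREST genes were called lower and 1 higher. The 1 higher call was lost without control replicate 1 and without Hnrnpk siRNA replicate 1, each with 6 lower. In the SIN3 complex 5 of 14 genes fell and 2 rose, with a median of -0.051. The lower calls numbered 3 without control replicate 1, without Hnrnpk siRNA replicate 1 and without Hnrnpk siRNA replicate 2, and also with no filter or no variance trend. Sap30 rose from 87.3 and 90.2 RPKM to 122 and 129 RPKM (log2 change 0.49), whereas Fam60a (-0.50) and Sin3a, the scaffold (-0.42), fell. With the GC trend removed, 4 SIN3 genes were called in each direction and the median was 0.10.

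The mitotic deacetylase complex was represented by 3 genes, of which Trerf1 (log2 change -0.96) and Elmsan1, listed under an older name and matched by identifier (-0.79), fell and Dnttip1 (0.44) rose. In the NCoR complex, built on HDAC3, 3 of 6 genes fell and 2 rose, and 3 were called in all without control replicate 1 or without Hnrnpk siRNA replicate 1. Gps2 rose from 45.6 and 38.3 RPKM to 80.2 and 78.5 RPKM (log2 change 0.92, SE 0.0826, limma adjusted p = 1.04e-05), while Tbl1x (-0.41) fell.

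Among the other methyl-CpG-binding-domain genes 3 of 5 rose, and limma called 0 lower, at either the adjusted or an unadjusted p under 0.05. With the GC trend removed, or without control replicate 2, 1 was called lower. Mbd1 rose from 5.88 and 6.33 RPKM to 11.2 and 10.9 RPKM (log2 change 0.81, SE 0.0751, limma adjusted p = 1.27e-05), with a smaller rise of Mbd6 (0.33). Of the other CHD remodellers 4 of 7 fell and 1 rose, and the 5 called of 7 are near the 67.2% of all genes tested. Chd7, known for its role in neural crest development, fell from 12.2 and 12.8 RPKM to 4.86 and 4.37 RPKM (log2 change -1.35, SE 0.0799, limma adjusted p = 9.37e-07), Chd9 fell (-0.56) and Chd2 rose (0.61).

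Of 15 NuRD partners and recruiting factors 13 were tested, and 4 rose and 6 fell, beside 32.2% and 35% of all genes tested. Sall1, a zinc finger protein whose amino terminus binds NuRD, fell from 109 and 105 RPKM to 67.4 and 62.4 RPKM (log2 change -0.72, SE 0.0656, limma adjusted p = 1.16e-05). Zfp296 rose from 57.7 and 64.4 RPKM to 100.4 and 97.1 RPKM (log2 change 0.69, SE 0.0701, limma adjusted p = 2.16e-05), and Zbtb7a rose from a lower level (0.81). Last, 6 genes described in ES cells as repressed by NuRD were counted, of which 3 rose and limma called 0 lower, at either the adjusted or an unadjusted p under 0.05. Tbx3, a T-box factor, rose from 16.4 and 14.8 RPKM to 64.0 and 61.1 RPKM (log2 change 1.97, SE 0.0703, limma adjusted p = 6.11e-08), and Htra1, a secreted protease, from 16.0 and 16.0 RPKM to 36.4 and 39.4 RPKM (log2 change 1.22). Klf5 rose by 0.16 (limma adjusted p = 0.0484). Its call was lost when any 1 of the 4 libraries was left out (limma adjusted p from 0.102 to 0.174), under quantile normalization (log2 change 0.040, limma adjusted p = 0.548) and with no variance trend (limma adjusted p = 0.0769), which left 2 genes called higher. Without control replicate 2, 1 gene of the list was called lower, Klf4 (log2 change -0.37, limma adjusted p = 0.00118), named after its values were seen. The median over the 6 was 0.090, against -0.015 over all genes tested.

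**Figure D5:**
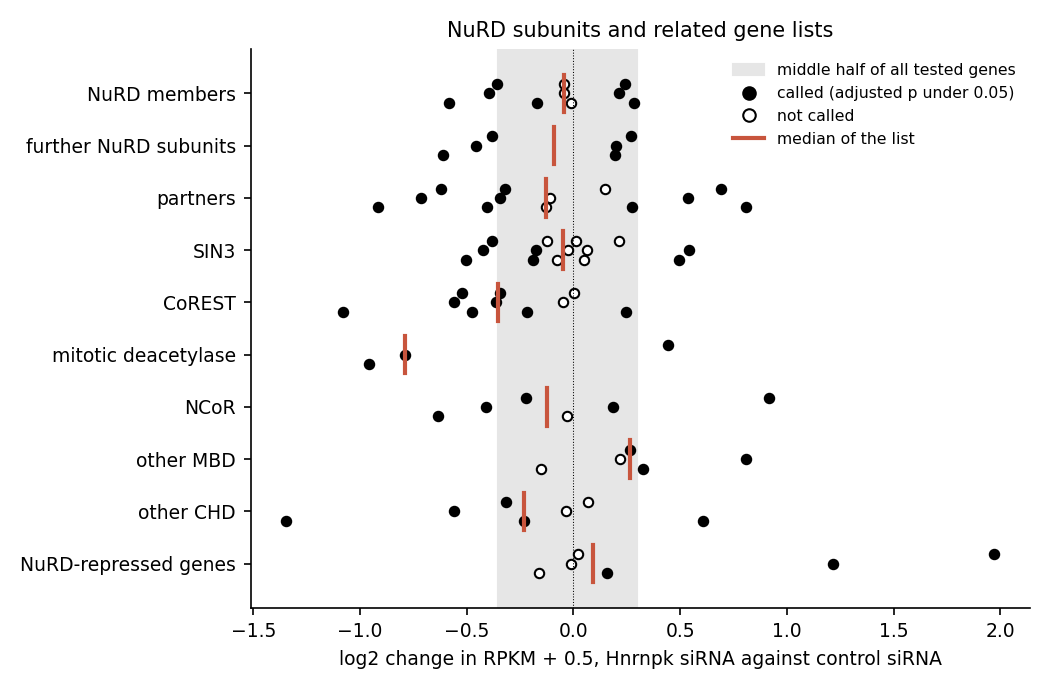
Log2 change in knockdown cells of every tested gene in the NuRD lists and the related lists (1 point a gene; filled, called at an adjusted p under 0.05; open, not called). Red bars are list medians and the grey band spans the quartiles of all tested genes, from -0.35 to 0.30; the CoREST median is -0.35 and the median of the NuRD members is -0.043.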

How the data were processed

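The deposited table gave RPKM per gene for 4 libraries. Per the submitters' processing notes, BWA and SAMtools were used with build mm9; no source used here gives the counting rule or annotation. Per the labels, the libraries came from RNA depleted of ribosomal RNA, and also from poly(A) RNA. RPKM are not counts, so values were analysed as log2(RPKM + 0.5) for the 12486 genes averaging 0.5 RPKM or more, with limma 3.58.1 in R 4.3.3 (variance trend, moderated two-sided tests, no covariate) and Benjamini-Hochberg adjustment. Adding 0.5 makes changes of low genes look smaller than they are. On simulated data the fit called 70% of 50 changes of size 0.3 on the log2 scale and 100% of those of 0.5 or 1. There 198 of 12486 genes were called, far fewer than in these data, so the fit was not tested at their share of changed genes. Identifiers were matched to GENCODE M21 on GRCm38 (92.8% of 22138) for position, length and GC content, a build other than the authors', and transcripts were compared with BLAST 2.17.0. The GC trend was a lowess fit (span 0.3) over genes in each library. Alternatives were an added 0.1 or 1 RPKM, no filter or one at 1 RPKM, median-ratio or quantile scaling, no variance trend, each library left out, a replicate block, and GC or length trends removed. Members and lists were chosen with earlier results of these data known. All members and further subunits are named, with up to 3 called genes of lowest p per other list, of which some are not reported here; Gm10093, AC125456.1, Gm6382, Gm12184, Sall4 and Adnp were added once their values had been seen.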

Additional observations from a re-analysis of the deposited data

How the results depend on the processing

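Each member was refitted under 15 alternatives. Hnrnpk, Chd4, Mta1 and Mta2 kept direction and call in all 15. Without a filter on low values the calls were lost for Hdac1 (-0.17, limma adjusted p = 0.0687) and Mbd3 (-0.40, 0.0564), so that 2 members were called lower, and further subunits called numbered 3 (Cdk2ap1, Cdk2ap2 and Rbbp4 were lost) and NCoR complex genes 3. Without a variance trend the call on Hdac1 (-0.17, 0.0650) was lost. With the GC trend removed Hdac1 (-0.15) and Mbd3 (-0.13) lost their calls, 2 members were called lower, and the uncalled Mbd2 (0.11) and Gatad2a (0.041) changed sign. Under quantile normalization Gatad2a was called lower (-0.15, limma adjusted p = 0.0455) and Mbd2 was at 0.059; the share differences became 3.50 points for Mta3, -1.66 for Mbd3, -0.86 for Gatad2a and -0.31 for Chd4, and the difference in summed RPKM became -121. With the length trend removed Gatad2b was at 0.062. The cause of these shifts was not tested. With single libraries left out, log2 changes ran from -0.21 to -0.13 for Hdac1, 0.20 to 0.28 for Hdac2, 0.19 to 0.23 for Mta3, -0.067 to 0.042 for Mbd2 and -0.14 to 0.056 for Gatad2b. The difference in the Gatad2a share ran from -1.18 to 1.203 points, members called higher from 1 to 3 and NCoR complex genes called from 3 to 4. In fits of 1 library against 2, the lone library is assumed to vary like those of the other group.

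The replicate numbers are shared between groups but are not said to pair the libraries, and the deviations of same-numbered libraries correlated at 0.0267 over 12486 genes. A replicate block gave 8622 called genes in place of 8396 and 3 members higher and 4 lower, as without it. With the block and the GC trend removed together, Mbd3 was at -0.13 (limma adjusted p = 0.0730), Mbd2 at 0.11 and Gatad2a at 0.041.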

Other observations

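Some genes listed as NuRD partners or recruiting factors that ES cells express strongly were not called. Sall4, a zinc finger protein of the pluripotency network and a paralog of Sall1, was listed at 131 and 141 RPKM after control siRNA and at 153 and 148 RPKM after Hnrnpk siRNA (log2 change 0.15, SE 0.0665, limma adjusted p = 0.0729). Adnp, whose protein forms a separate complex with CHD4, was listed at 49.8 and 48.9 RPKM and then at 44.96 and 45.2 RPKM (log2 change -0.13, SE 0.0598, limma adjusted p = 0.0811). The groups did not overlap for either gene, as for 84.7% of all genes tested.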
